A study of Mus musculus with 8 samples.

Results

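Expression of 7 genes that encode voltage-gated channels of sodium, HCN and T-type calcium current was examined in neonatal cardiomyocytes (NCMs) after in utero exposure to diesel exhaust (DE) or filtered air (FA). The genes were taken by name, Hcn2, Hcn3, Hcn4, Cacna1g, Cacna1h, Scn10a and Scn4b, and all 7 were found among the 27179 genes counted. RNA-seq had been performed on 8 libraries, each from the NCMs of 1 male C57Bl/6J heart collected at birth. The methods give fewer animals per group than the labels, and all labelled libraries were used. The dams had breathed FA (4 libraries, replicates 2, 3, 4 and 6) or DE (4 libraries, replicates 1, 3, 5 and 7) on weekdays from E0.5 to E17.5 of gestation, and no group carried a genetic change. Hearts were trimmed of atrial and vascular tissue, and cells that attached to a plate during a preplating step meant for fibroblasts were left behind. RNA was therefore taken from a bulk preparation enriched in ventricular myocytes. Each name in the labels holds a prefix of unstated meaning, 12 for DE replicates 3 and 5 and 11 for the other 6 libraries. The sources do not state whether any of the pups were littermates, so the spread between libraries may be smaller than that between litters. In bulk RNA, fewer cells of a type and less RNA per cell cannot be told apart.

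HCN channels open when the membrane hyperpolarizes and carry the inward pacemaker current, with Hcn4 as the main form of the sinoatrial node and Hcn2 better known from working myocardium. T-type calcium channels, with the pore subunits encoded by Cacna1g and Cacna1h, open at low voltage, and both these and the HCN channels are known to be used by fetal and newborn ventricular myocytes and to decline as the heart matures. Scn10a encodes a sodium channel best known from sensory neurons and Scn4b encodes an accessory beta subunit of sodium channels.

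The members lie on 5 chromosomes of GRCm38 (mm10), 3 of them on chromosome 9. Hcn2 is at chr10:79716634-79736108, Hcn3 at chr3:89146775-89160284, Hcn4 at chr9:58822949-58863175, Cacna1g at chr11:94408391-94474400, Cacna1h at chr17:25374285-25436334, Scn10a at chr9:119608456-119719322 and Scn4b at chr9:45138624-45154155. Counting was done per gene, and GENCODE M21 lists between 1 transcript (Hcn4 and Scn4b) and 16 transcripts (Cacna1g) for a member, 5 of them for Scn10a, which these counts do not separate. The 3 HCN members shared no run of 36 bases with one another, and the longest run shared by Cacna1g and Cacna1h was 41 bases. Genes of one channel family can share coding sequence, and how fragments that fit several genes were counted is not given in the sources used here. In the annotation 2 members also overlap a counted gene on the other strand, Pklr for Hcn3 and Tpsg1 for Cacna1h, and although the library kit kept strand, the strand setting of the counting is not given either.

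The RefSeq promoter windows (GRCm38.p6, 250 bases before to 50 after the start) held an entry for 4 members, Hcn2, Hcn4, Scn10a and Scn4b. Their base composition set the HCN members apart from Scn10a. The window of Hcn2 had 72.3% G and C with 26 CpG, that of Hcn4 71.7% with 31 CpG, that of Scn4b 66.3% with 26 CpG and that of Scn10a 51.7% with 11 CpG, against medians of 52.7% and 7 CpG over the 32817 windows of the table. Each window was searched on both strands for 5 short motifs. T-box factors were represented by AGGTGT. The letters searched for the GATA factors were AGATAA, and those of the GC box GGGCGG. For the NKX factors the letters were TNAAGTG, where N is any base. The TATA box was searched as TATAAA. The windows are printed for Hcn2 and Hcn4, where matches were found, and for Scn10a, where none of the 5 was found, and capitals mark the matches.
Hcn2, chr10:79716384-79716683, plus strand: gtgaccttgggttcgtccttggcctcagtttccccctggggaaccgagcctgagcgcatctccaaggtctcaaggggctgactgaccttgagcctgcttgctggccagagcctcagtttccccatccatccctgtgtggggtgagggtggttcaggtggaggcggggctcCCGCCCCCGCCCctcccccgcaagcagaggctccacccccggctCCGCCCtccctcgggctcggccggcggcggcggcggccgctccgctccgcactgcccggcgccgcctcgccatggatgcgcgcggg
Hcn4, chr9:58822699-58822998, plus strand: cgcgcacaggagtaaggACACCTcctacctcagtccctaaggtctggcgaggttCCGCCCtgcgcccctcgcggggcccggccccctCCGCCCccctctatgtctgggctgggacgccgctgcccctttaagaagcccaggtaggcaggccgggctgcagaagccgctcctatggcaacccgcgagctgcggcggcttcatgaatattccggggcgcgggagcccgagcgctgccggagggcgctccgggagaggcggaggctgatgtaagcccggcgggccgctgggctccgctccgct
Scn10a, chr9:119718983-119719282, minus strand: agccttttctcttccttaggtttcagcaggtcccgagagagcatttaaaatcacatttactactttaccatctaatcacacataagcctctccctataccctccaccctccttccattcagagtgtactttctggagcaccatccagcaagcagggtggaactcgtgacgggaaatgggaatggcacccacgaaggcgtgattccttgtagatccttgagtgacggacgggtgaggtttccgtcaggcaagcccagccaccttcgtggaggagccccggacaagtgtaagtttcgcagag
Hcn2 held 3 GC boxes, at 80, 74 and 36 bases before the start. Hcn4 held GC boxes at 196 and 163 bases before the start and 1 match to the T-box letters at 233 bases before it, and all these matches were on the strand opposite to the gene and shared no bases. Of all windows, 35.6% held a GC box, 13.7% the T-box letters, 11.2% the GATA letters, 11.5% the NKX letters and 13.6% the TATA box. The Scn4b window held no match either. These letters describe the windows, and no binding was measured here.

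The libraries held 17943024 to 39839737 counted fragments, and 14966 of the genes had enough counts to be tested with edgeR. Levels are given in CPM, the usual per-depth unit of sequencing counts, that is the counts of a gene scaled to a common library size by TMM factors. A gene was called if its adjusted p by edgeR's quasi-likelihood test was at most 0.05 and its levels differed by at least 25%, which 5.8% of tested genes met (332 lower and 536 higher in DE, or 217 lower and 803 higher if library totals alone set the scale). The cells carried the markers of cardiomyocytes, whose 9 listed genes summed to 64460 to 71270 CPM in FA and 50100 to 58860 CPM in DE. Most of that difference lay in Myh6, the alpha myosin heavy chain, at 23300 ± 1521 CPM with FA and 14620 ± 685 CPM with DE (SD, n = 4 per group), which was the 1 gene of the 9 that was called. All 9 had a lower fitted level in DE. Tnnt2, Tnni3, Myl2 and Myl3, which encode troponins and myosin light chains, had log2 fold changes between -0.07 and -0.05 and were not called. Larger falls that were not called either were those of Ttn (-0.80, adjusted p = 0.0562) and Ryr2 (-0.62, adjusted p = 0.152, edgeR). Actc1 (-0.20) and Actn2 (-0.16) lay between. Among factors of the sinoatrial node, Shox2 was at 0.344 CPM or less and Isl1 at 0.787 CPM or less in every library, whereas Tbx3, which conduction tissue shares, was at 22.4 to 31.2 CPM and Tbx18, also known from the epicardium, at 29.6 to 54.0 CPM. The 8 fibroblast markers summed to 2008 to 3461 CPM in FA and 3655 to 6177 CPM in DE, with Col1a1 and Dcn called higher. Long transcripts were also unevenly represented. Relative to the mean of the 8 libraries, the median log2 level of genes with transcripts of 4871.5 bases or more minus that of genes with 2240.5 bases or less was 0.43 in FA replicate 2 and 0.37 in FA replicate 4, and -0.33 in DE replicate 3 and -0.43 in DE replicate 5, with the other 4 libraries between -0.18 and 0.12. Unless stated, the part of these differences in the results that follow was not tested.

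Of the 7 members, 6 passed the filter and Scn4b did not. None of the 6 passed edgeR's quasi-likelihood test as a call, beside the 5.8% of all tested genes (2.22% lower and 3.58% higher in DE). DESeq2 (10.9% of all genes called), edgeR's likelihood ratio test (10.7%) and the test with the 25% difference built in (0.762%) also called 0. At an unadjusted p under 0.05, 1 member (Cacna1g) passed, beside 25.6% of all tested genes. That count was 4 of 6 with the prefix as a term (Hcn2, Cacna1g, Cacna1h and Scn10a), beside 17.9% of all genes tested in that fit. With prefix 11 alone it was 3 of 5 (Hcn2, Cacna1g and Cacna1h), beside 16.6%, and with single libraries left out it was 0 to 2, beside 18% to 27.9%. It was 0 without FA replicate 2, FA replicate 3, DE replicate 1, DE replicate 5 or DE replicate 7, and 2 without FA replicate 6 or DE replicate 3. The fitted level was lower in DE for 5 members and higher for 1, Scn10a, with a median log2 fold change of -0.14 against 0.00371 over all tested genes. Scn10a was the 1 tested member whose libraries did not overlap between groups, which held for 14.7% of tested genes in either direction and for 7.43% with DE higher.

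**Figure D1:**
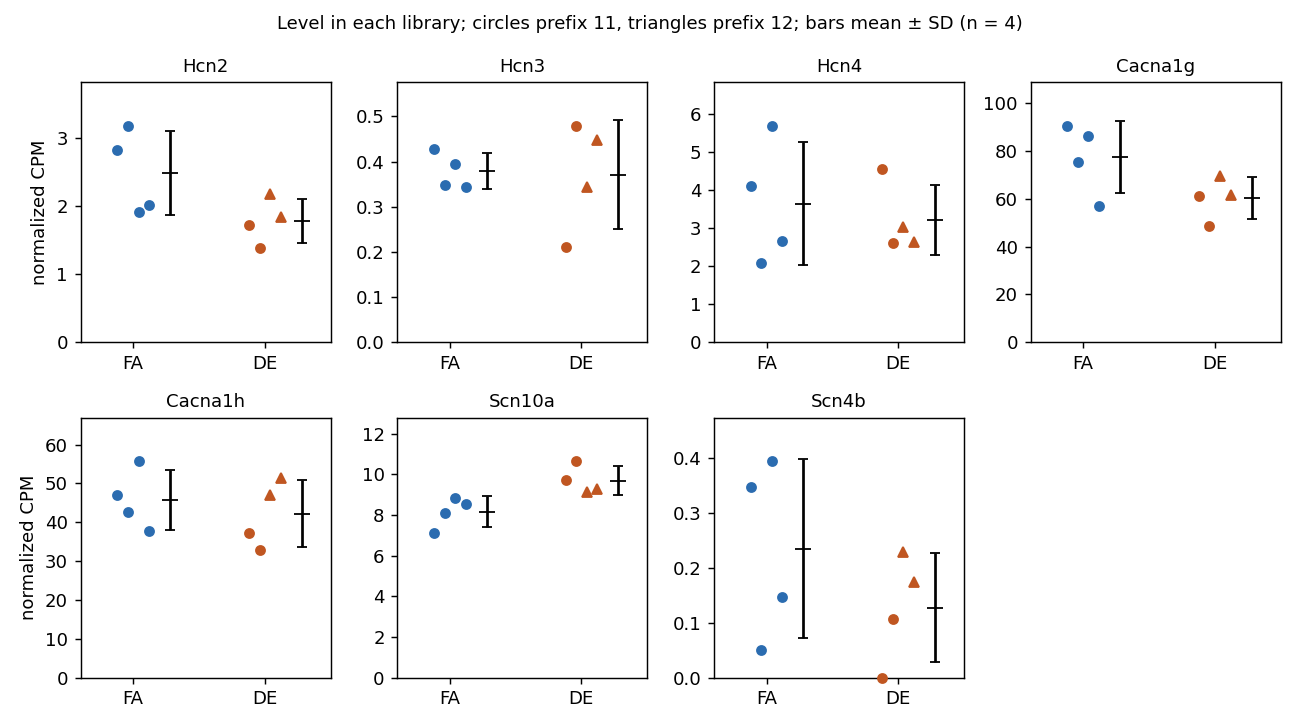
Normalized CPM (vertical axes, each starting at 0) of the 7 members in the 4 FA (blue) and 4 DE (orange) libraries. Circles are libraries with prefix 11, triangles those with prefix 12, and black bars give the mean ± SD. The groups overlap for 6 of the 7 members, while all DE libraries lie above all FA libraries for Scn10a.

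The T-type channels had the highest levels of the members, also per kilobase. Cacna1g, the pore subunit of the Cav3.1 channel, was at 90.5, 75.4, 86.2 and 56.8 CPM in FA replicates 2, 3, 4 and 6. In DE replicates 1, 3, 5 and 7 it was at 61.3, 69.5, 61.5 and 48.5 CPM. The DE libraries were low except that FA replicate 6 lay among them, so the groups overlapped. The mean of Cacna1g was 77.2 ± 15.0 CPM with FA against 60.2 ± 8.67 CPM with DE (SD, n = 4 per group). Its log2 fold change was -0.36 with a 95% interval from -0.70 to -0.02. The adjusted p of edgeR's quasi-likelihood test was 0.171, and over 20 alternatives it ranged from 0.0593 to 0.841. With FA replicate 6 left out it was 0.0593, at a log2 fold change of -0.48. Allowing for transcript length and GC content gave -0.25 (adjusted p = 0.216, edgeR).

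Cacna1h, the pore subunit of Cav3.2, was at 47.0, 42.7, 55.8 and 37.7 CPM in FA replicates 2, 3, 4 and 6. It was at 37.3, 47.1, 51.4 and 32.8 CPM in DE replicates 1, 3, 5 and 7. DE replicates 1 and 7, of prefix 11, lay below all FA libraries, and DE replicates 3 and 5, of prefix 12, lay among them, so the groups overlapped over all 8 libraries and were separate within prefix 11. The mean of Cacna1h was 45.8 ± 7.67 CPM with FA against 42.2 ± 8.59 CPM with DE (SD, n = 4 per group). The log2 fold change was -0.12 (95% interval -0.47 to 0.23, adjusted p = 0.676 by edgeR's quasi-likelihood test). With prefix 11 alone it was -0.39 (adjusted p = 0.246), and no call was made. In these intervals a fall of Cacna1g to 0.618 of the FA level, or of Cacna1h to 0.724 of it, was still included.

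As a share of the T-type counts of a library, Cacna1g made up 65.8%, 63.9%, 60.7% and 60.1% in FA replicates 2, 3, 4 and 6. It made up 62.1%, 59.6%, 54.5% and 59.7% in DE replicates 1, 3, 5 and 7. The means of 62.6 ± 2.69% and 59.0 ± 3.24% (SD, n = 4 per group) differed by about the spread within a group, and the groups overlapped. Cacna1g gave the larger part of the T-type counts in all 8 libraries. The third T-type gene, Cacna1i, had 4 counts over the 8 libraries.

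The HCN members were low. Hcn4 was at 4.12, 2.09, 5.70 and 2.66 CPM in FA replicates 2, 3, 4 and 6. In DE replicates 1, 3, 5 and 7 it was at 4.57, 3.04, 2.64 and 2.61 CPM. The highest libraries were FA replicate 4, DE replicate 1 and FA replicate 2, and the 4 DE values lay inside the range of FA. Means of 3.64 ± 1.62 and 3.22 ± 0.923 CPM (SD, n = 4 per group) gave Hcn4 a log2 fold change of -0.17 (95% interval -0.82 to 0.48, adjusted p = 0.746 by edgeR). Hcn4 varied more than counting error, with a coefficient of variation of 44.4% in FA against 12.1% from counting alone. Its direction was not stable, since without FA replicate 4 the log2 fold change was 0.10. It was also slightly positive with the prefix as a term (0.012) and with prefix 11 alone (0.0076).

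Hcn2 was at 2.83, 3.19, 1.92 and 2.02 CPM in FA replicates 2, 3, 4 and 6, and at 1.73, 2.18, 1.85 and 1.39 CPM in DE replicates 1, 3, 5 and 7. FA replicates 2 and 3 stood above all other libraries, and DE replicate 3 lay above FA replicates 4 and 6. The mean of Hcn2 was 2.49 ± 0.621 CPM with FA against 1.78 ± 0.328 CPM with DE (SD, n = 4 per group). The log2 fold change was -0.47 (95% interval -0.95 to 6.06e-05, adjusted p = 0.195 by edgeR's quasi-likelihood test). Hcn2 was the 1 member called when the dependence of each library on GC content and transcript length was removed, an alternative chosen after seeing the data. The log2 fold change was then -0.65 (adjusted p = 0.0378 by edgeR, with 11.0% of 13851 genes called in that fit). Over all 20 alternatives its adjusted p ranged from 0.0378 to 0.702, and its fold change was negative in each.

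Hcn3 was close to the limit of detection, with 16, 7, 7 and 7 counts in FA replicates 2, 3, 4 and 6 and 7, 12, 18 and 9 counts in DE replicates 1, 3, 5 and 7. Levels of Hcn3 ran from 0.344 to 0.428 CPM with FA and from 0.212 to 0.480 CPM with DE, so that FA lay within the range of DE. The log2 fold change was -0.07 with a wide 95% interval, from -0.77 to 0.62 (adjusted p = 0.906, edgeR). Counting error alone gives a coefficient of variation of 35.0% in FA, so a change smaller than the interval was not detectable at this depth.

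Within the HCN counts of a library, Hcn4 made up 55.8%, 37.2%, 71.1% and 52.9% in FA replicates 2, 3, 4 and 6, and 70.2%, 54.6%, 53.5% and 58.3% in DE replicates 1, 3, 5 and 7. The mean shares of Hcn4 were 54.3 ± 13.9% and 59.2 ± 7.64%, those of Hcn2 39.8 ± 13.4% and 33.5 ± 5.85%, and those of Hcn3 5.95 ± 0.808% and 7.31 ± 3.29% in FA and DE (SD, n = 4 per group). The groups overlapped for each, and the higher mean share of Hcn4 in DE rested on FA replicate 3, without which the difference was -0.77 percentage points.

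Scn10a was the member that was higher in every DE library. It was at 7.11, 8.12, 8.86 and 8.56 CPM in FA replicates 2, 3, 4 and 6, and at 9.74, 9.12, 9.28 and 10.7 CPM in DE replicates 1, 3, 5 and 7. The lowest DE library was at 9.12 CPM against 8.86 CPM in the highest FA library, so the groups were separate by a small margin. Means of 8.16 ± 0.763 and 9.70 ± 0.692 CPM (SD, n = 4 per group) went with coefficients of variation of 9.35% and 7.13%, near the 7.42% and 5.90% of counting error. The log2 fold change of 0.25 (95% interval -0.01 to 0.51) was not called by edgeR's quasi-likelihood test (adjusted p = 0.213), nor under any of the 20 alternatives, the lowest adjusted p being 0.0934. The interval excluded a rise of Scn10a beyond 1.43 times the FA level.

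As Scn10a is known from neurons, their markers were examined in the same libraries. Of 12 neuron markers 7 were tested, all 7 with a higher fitted level in DE, and 1, Gap43, was called. The list summed to 37.7 to 54.2 CPM in the FA libraries and 54.5 to 82.5 CPM in the DE libraries. Most of this sum came from Uchl1, with means of 35.4 CPM in FA and 48.4 CPM in DE. Among the defining markers, Chat had no count in any library, and Prph, a filament of peripheral neurons, lay between 0.169 and 0.561 CPM with FA and 0.373 and 1.12 CPM with DE. The part of neurons in the level of Scn10a was not tested.

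Scn4b had 24 counts over the 4 FA libraries and 17 over the 4 DE libraries. The counts were 13, 1, 7 and 3 in FA replicates 2, 3, 4 and 6 and 0, 8, 7 and 2 in DE replicates 1, 3, 5 and 7. In DE replicate 1, the count of 0 allows a level of up to 0.0907 CPM (3 counts, counting error only). The Scn4b levels of 0.0498 to 0.395 CPM with FA and 0 to 0.229 CPM with DE overlapped, and a difference was not detectable at this depth. Of the other beta subunits, Scn3b was at 1.10 ± 0.141 and 1.17 ± 0.279 CPM, and Scn2b, with 81 counts in all, was not tested.

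**Figure D2:**
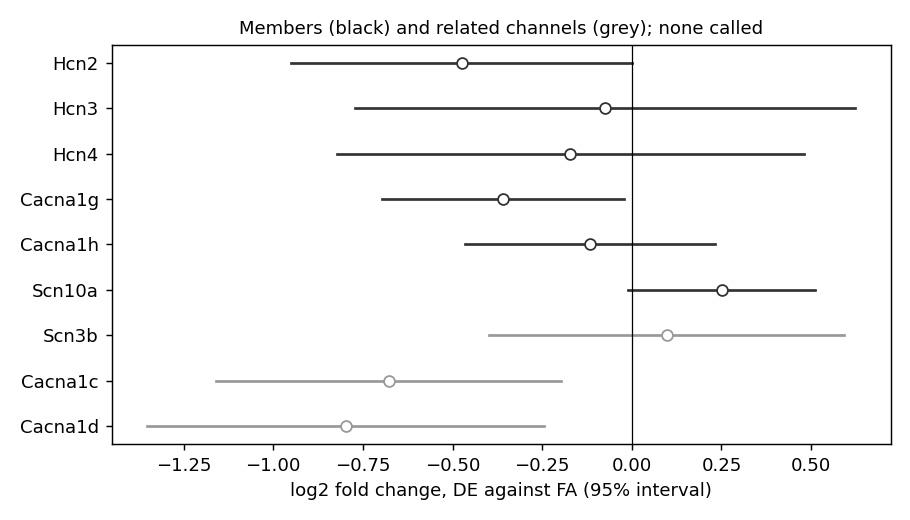
Log2 fold change of DE against FA (horizontal axis) with its 95% interval for the 6 tested members (black) and for Cacna1c, Cacna1d and Scn3b (grey), which are no members, from edgeR's quasi-likelihood fit. None of the genes drawn was called. The intervals of 5 members include 0 and that of Cacna1g ends at -0.02.

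**Figure D3:**
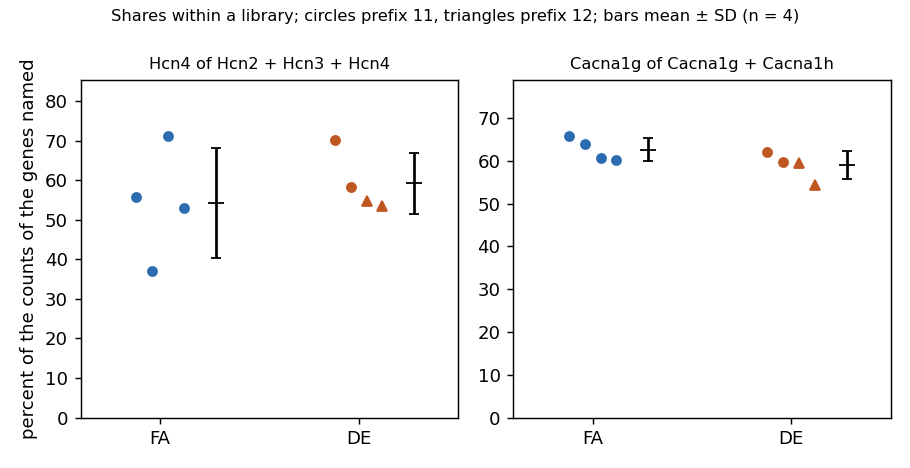
Share of counts within each library in percent (vertical axes, starting at 0) for Hcn4 among the 3 HCN members and for Cacna1g among the T-type members. Points are libraries (circles prefix 11, triangles prefix 12) and bars the mean ± SD of 4 libraries. The groups overlap in both panels.

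Levels of different genes were compared per kilobase of exon (GENCODE M21, all exons of a gene joined). Cacna1g stood at 7.62 ± 1.48 CPM per kb in FA and 5.94 ± 0.856 in DE, above Cacna1h at 4.69 ± 0.785 and 4.32 ± 0.880 (SD, n = 4 per group), and it was the higher in 8 of 8 libraries. Scn10a followed at 1.02 ± 0.0958 and 1.22 ± 0.0868 CPM per kb. Hcn2, at 0.779 ± 0.194 and 0.558 ± 0.103, and Hcn4, at 0.595 ± 0.264 and 0.526 ± 0.151, did not differ beyond their spread, with Hcn2 higher in 6 of 8 libraries per kb although Hcn4 had more counts in total. Hcn3 was at 0.0912 ± 0.00959 and 0.0893 ± 0.0291 CPM per kb and Scn4b lowest at 0.0472 ± 0.0328 and 0.0256 ± 0.0198. Each other step of this order held in 8 of 8 libraries. Among the 13851 tested genes with a length, 61.2% were lower than Cacna1g, 50.2% lower than Cacna1h, 23.0% lower than Scn10a, 16.6% lower than Hcn2, 14.7% lower than Hcn4 and 1.56% lower than Hcn3.

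**Figure D4:**
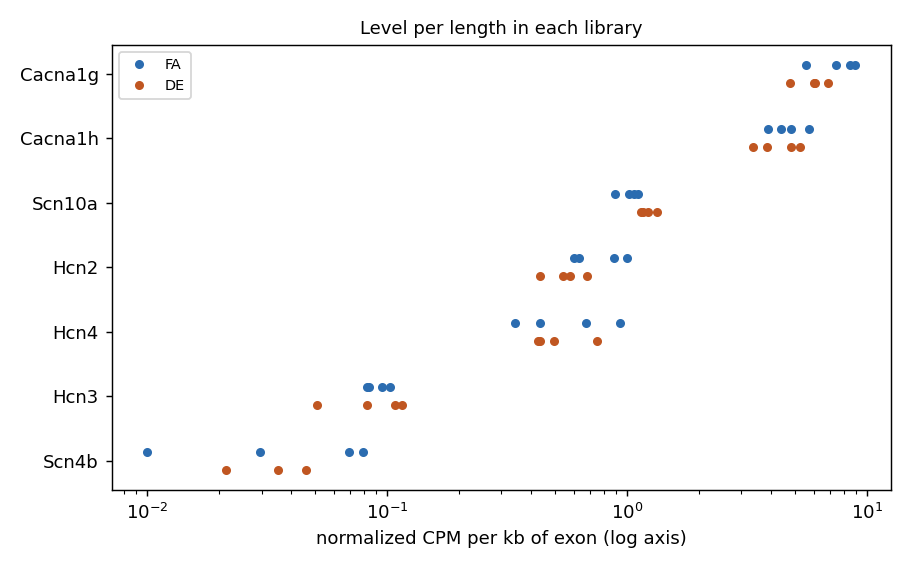
Normalized CPM per kb of exon (horizontal log axis) of the 7 members in each FA (blue) and DE (orange) library. The DE library in which Scn4b had no count cannot be drawn on this axis. The T-type members lie between 3.36 and 8.93 CPM per kb, and Hcn2 and Hcn4 between 0.342 and 0.998.

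With the libraries of prefix 11 alone, 4 FA and 2 DE, the log2 fold changes were -0.68 for Hcn2, -0.50 for Cacna1g, -0.39 for Cacna1h, 0.0076 for Hcn4 and 0.32 for Scn10a. None was called (lowest adjusted p = 0.207, edgeR), and Hcn3 did not pass the filter there. The 2 DE libraries of prefix 12 have no FA library of the same prefix, so no value within that prefix could be given.

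Genes that work with these channels were examined as 8 lists of 72 genes (sodium channel subunits and partners, HCN partners, other calcium channel subunits, and factors and junction genes of conduction tissue). Of the 58 that were tested, 3 were called, all lower in DE, and 16 had an unadjusted p under 0.05. These shares of 5.17% and 27.6% lay near the 5.8% and 25.6% of all tested genes. Their median log2 fold change was -0.12 against 0.00371 over all tested genes. Among the called genes were Cacnb2, the beta subunit of the L-type calcium channel, which fell from 78.5 ± 1.87 to 60.0 ± 7.11 CPM (log2 fold change -0.39, adjusted p = 0.0485), and Gja1, the gap junction protein connexin 43, which fell from 894 ± 64.6 to 566.1 ± 105.4 CPM (log2 fold change -0.66, adjusted p = 0.0198, edgeR, SD, n = 4 per group). Cacnb2 was called in 6 and Gja1 in 15 of 20 alternatives. The pore subunits of the L-type channel, Cacna1c (log2 fold change -0.68, adjusted p = 0.0892) and Cacna1d (-0.80, adjusted p = 0.0839, edgeR), were not called. The count of 3 rose to 7 without DE replicate 1 and was 1 without FA replicate 2 or FA replicate 4.

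Of the 14 annotated genes nearest to the members, 7 were tested and 3 were called, beside 5.8% of all tested genes. Those called lower in DE included Polrmt, the mitochondrial RNA polymerase gene 17 bases from Hcn2 (log2 fold change -0.44, adjusted p = 0.0443) and Neo1, a receptor gene 11504 bases from Hcn4 (-0.52, adjusted p = 0.0443, edgeR). On the other side of these members, Bsg near Hcn2 (-0.01) and Rec114 near Hcn4 (-0.31, adjusted p = 0.409, edgeR) were not called. Likeness of pattern was measured as the root mean square difference of log2 CPM, centred on each gene's mean, over the 8 libraries. Given for 5 members, the closest genes of at least 1 CPM were Asb10 (0.11) for Hcn2, Pcdhb19 (0.19) for Hcn4, Gse1 (0.07) for Cacna1g, Tsacc (0.09) for Cacna1h and Hat1 (0.04) for Scn10a, followed by Six5, Ttc28, Adam19, Bcl11b and Eid1 in the same order. The median difference from all candidates lay between 0.27 for Scn10a and 0.51 for Hcn4. None of these genes was called.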

How the data were processed

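RNA-seq was analysed for 8 NCM libraries grouped by exposure from their labels, 4 FA and 4 DE. The authors used Tophat for alignment to mm10, guided by Ensembl v67 transcripts, marked duplicates without removing them, and counted fragments with featureCounts, and they deposited raw counts per Entrez gene without normalization. Counting annotation, strand setting and treatment of fragments that fit several genes are not given in the sources used here, and duplicates left in the counts may overstate counting precision. Symbols came from RefSeq (GRCm38.p6) by Entrez ID, for 25275 of 27179 genes. Since older aliases of Hcn3 and Hcn4 are interchanged, aliases were not used.

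Counts were filtered by edgeR's filterByExpr (minimum count 10), scaled by TMM and tested with edgeR 4.0.16 (glmQLFit, glmQLFTest, R 4.3.3) in a model of exposure alone, and p was adjusted by Benjamini-Hochberg over 14966 genes. Standard errors were derived from the F statistic, and 95% intervals from its degrees of freedom. The biological coefficient of variation was 15.95%. Depth ran from 17943024 to 39839737 counts. Shares and levels per kb carry no test. The code was tested on simulated data.

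The alternatives were DESeq2 1.42.0, the likelihood ratio test, the 25% difference built into the test, RLE and upper quartile factors, library totals, no filter, a mean of at least 1 CPM, the name prefix as a term, prefix 11 alone, and each library left out. A per-library correction for GC content and transcript length (natural splines, 5 degrees of freedom each) and a fit of the same genes without it were added after the data were seen. Members and lists were chosen with earlier results of these data known. The genes named are all members, 8 related channel genes, each called gene of the related lists, the 2 genes most alike in pattern to each tested member (0.01 CPM added before the logarithm), and the nearest annotated gene on each side. Some genes that this rule takes are not reported here. Cell type markers, Cacng7 and the conduction genes of the closing section were singled out after their values were seen.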

Additional observations from a re-analysis of the deposited data

How the results depend on the processing

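None of the tested members was called under the alternatives, except Hcn2, the 1 member called under the correction for GC content and transcript length, which was chosen after seeing the data. The fold changes of Hcn2, Hcn3, Cacna1g, Cacna1h and Scn10a kept their sign in every alternative that gave a value. That of Hcn4 (-0.17) turned positive with the prefix as a term (0.012), with prefix 11 alone (0.0076) and without FA replicate 4 (0.10), and the cause was not tested. Leaving out single libraries moved Hcn2 between -0.58 and -0.35, Hcn4 between -0.39 and 0.10, Cacna1g between -0.48 and -0.27, Cacna1h between -0.23 and -0.02, and Scn10a between 0.19 and 0.28. The 3 called related genes became 11 with DESeq2 and with the likelihood ratio test, 10 with that correction, 0 with the 25% difference built into the test (9 at an unadjusted p under 0.05), 1 with prefix 11 alone (Cacng7, higher in DE), and 1 to 7 with single libraries left out. Over all genes, 868 were called, against 1633 with DESeq2, 1603 with the likelihood ratio test, 1526 with the GC and length correction, 448 with the prefix as a term, 260 with prefix 11 alone, 114 with the 25% difference in the test, and 237 (without FA replicate 4) to 1168 (without DE replicate 1) with single libraries left out. Library totals alone gave 1020 calls, 78.7% of them higher in DE against 61.8%. Without FA replicate 3 the difference in the Hcn4 share turned from 4.93 to -0.77 percentage points and that in the Hcn2 share shrank from -6.29 to -0.68. Over the alternatives the difference in the Hcn3 share ran from 0.231 to 2.72 points and that in the Cacna1g share from -4.71 to -1.71. Hcn3 did not pass the filter in 6 of the alternatives, and Scn4b was tested only without a filter (adjusted p = 0.515, edgeR). No paired analysis was possible because the labels give no pairing of FA with DE libraries. With 41 and 83 counts in all, Scn4b and Hcn3 are limited by depth.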

Other observations

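Of the related genes of conduction tissue, 4 that were chosen after their values were seen are described here, and edgeR called none of them. Among the 14 conduction factors tested, 0 were called, and the fitted level in DE was lower for 10 and higher for 4, Id2 being among the higher (log2 fold change 0.30). Among the 8 junction and surface genes, which include Cntn2, it was lower for 7 and higher for 1, and 1 was called. Tbx5, a transcription factor of the conduction system, was at 30.4 ± 3.31 CPM with FA and 21.2 ± 5.11 CPM with DE (SD, n = 4 per group), with a log2 fold change of -0.52 (adjusted p = 0.0783). Tbx18, known from the head of the sinoatrial node and from the epicardium, was at 51.1 ± 4.36 and 36.2 ± 7.50 CPM (log2 fold change -0.50, adjusted p = 0.0577, edgeR). Both were called in 4 of 20 alternatives. Tbx3, a factor of the node and the conduction bundles, was at 26.7 ± 2.71 and 25.8 ± 3.85 CPM (log2 fold change -0.05). Cntn2, a surface protein of Purkinje cells, was at 14.6 ± 2.39 and 11.2 ± 2.92 CPM, with an adjusted p of 0.214 by edgeR.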
